A study of Mus musculus with 61 samples.

Results

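The 9 genes described here are the antisense and noncoding transcripts of the mouse Hox clusters that carry the names Hotairm1, Hoxaas2, Hoxaas3, Hoxa11os, Hottip, Hotair, Hoxb3os, Hoxb5os and Hoxd3os1. They were picked by name from the 55052 genes of the expression table, a rule that uses no measured value. Expression was measured by RNA-seq of stembryos, which form from aggregated mouse embryonic stem cells that received a pulse of the Wnt agonist Chiron and then elongated. The 61 libraries fell into 28 groups by genotype, stage and series, and a library was made from pooled stembryos. The wild type was an EmbryoMax 129/SVEV line. Its time course ran from 72 h after aggregation in steps of 12 h to 144 h and ended at 168 h, with 2 libraries per stage. Other wild-type libraries, made outside the time course, were taken at 96 h (4), 120 h (4) and 144 h (2). All mutant lines were homozygous and carried changes in or next to the HoxD cluster on chromosome 2. Del(CBS1), Del(CBS2), Del(CBS1-2), Del(CBS4) and Del(CBS1-5) lacked binding sites of the insulator protein CTCF, and Del(CBS1-2) was made on top of Del(CBS1). Ins(2xCBS-d4d8) carried a cassette with a pair of extra CTCF sites between Hoxd4 and Hoxd8. Del(d1-d4) lacked the segment from Hoxd1 to Hoxd4, and Del(sub-TAD1) lacked a part of the flanking regulatory domain together with Mtx2, which was supplied by a transgene. The mutants were sampled at 96 h and 120 h, except that Del(CBS1-5) was also taken at 144 h and that Del(CBS4) was taken at 120 h and 144 h only. There were 2 libraries per mutant and stage, and 3 for the earlier stage of Del(sub-TAD1). Del(CBS1-5) and Del(sub-TAD1) came from blastocysts and thus from another genetic background than the wild type, so that mutation and background cannot be told apart in those lines.

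Hox clusters are opened and transcribed in the order in which their genes lie on the chromosome, from the anterior genes to the posterior genes, and CTCF sites between the genes divide them into insulated segments. Besides the Hox genes, which all run in one direction within a cluster, the clusters produce noncoding transcripts, many of them from the opposite strand. Hotairm1 was described at the anterior end of HOXA in myeloid cells, Hottip at the posterior end of HOXA as a transcript that helps to maintain active chromatin there, and Hotair in HOXC as a transcript associated with chromatin repression. The roles of Hoxaas2, Hoxaas3, Hoxb3os, Hoxb5os and Hoxd3os1 are less well known, and Hoxa11os runs opposite to Hoxa11, with which it is expressed in a complementary manner in the limb bud.

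All values are FPKM, fragments per kilobase of transcript and per M (mega) of mapped fragments, as Cufflinks wrote them. They are scaled by transcript length, so that levels of different genes can be set side by side. Positions are given on mm10 (GRCm38), and the exons are those of GENCODE vM21, whose gene spans equal those of the table for all 9 genes.

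The positions of the transcripts matter for what is measured, because most of them lie over Hox genes on the opposite strand. In HoxA, on chromosome 6, Hotairm1 (52156902 to 52162119, plus strand) had 1025 exonic bases. Hoxaas2 (52165674 to 52169564) shared 503 of 3361 exonic bases with Hoxa3, or 14.97%. Hoxaas3 (52175217 to 52215076) spanned the cluster from Hoxa3 to Hoxa7, and 30.6% of its 2889 exonic bases lay in exons of these 2 genes, 297 in Hoxa3 and 586 in Hoxa7. Hoxa11os (52244393 to 52249799) shared 800 of 3073 bases with Hoxa11, 709 of which were coding in Hoxa11. Hottip (52262775 to 52267603) lay 1894 bases beyond Hoxa13 and overlapped no Hox gene. Hotair (chromosome 15, 102944062 to 102947730, minus strand) lay between Hoxc11 and Hoxc12 and overlapped neither. In HoxB, on chromosome 11, Hoxb3os (96343072 to 96354691, minus strand) had the highest shared portion, 76.2% of 4201 exonic bases, of which 2250 lay in exons of Hoxb3 and 953 in exons of Hoxb2. Hoxb5os (96291024 to 96306910) ran opposite to Hoxb5 and Hoxb6 and shared 100 of 696 exonic bases with Hoxb5. In HoxD, Hoxd3os1 (chromosome 2, 74703248 to 74716130, minus strand) lay over Hoxd8 and the start of the longer Hoxd3 and Hoxd4 transcripts, with 347 of 2872 exonic bases shared with their untranslated exons. The libraries were stranded, but Cufflinks was run with its default parameters, under which the library type is unstranded, so that reads from the shared stretches may not have been told apart from those of the Hox gene.

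The starts of Hoxa11os and Hoxd3os1 are shown because these transcripts changed both in the time course and in mutants. RefSeq promoter sequences (GRCm38.p6, 250 bases before the start and 50 bases after it) were at hand for 4 members, Hoxa11os, Hottip, Hoxb3os and Hoxd3os1. Capitals mark the transcribed 50 bases after the RefSeq start. In GENCODE, Hoxa11os begins further upstream, at 52244393, and all 300 bases of its window are exonic there. Its lower-case bases thus lie before the RefSeq start only. The window of Hoxa11os was chr6:52244993-52245292 on the plus strand, and that of Hoxd3os1 was chr2:74716081-74716380 on the minus strand.
Hoxa11os: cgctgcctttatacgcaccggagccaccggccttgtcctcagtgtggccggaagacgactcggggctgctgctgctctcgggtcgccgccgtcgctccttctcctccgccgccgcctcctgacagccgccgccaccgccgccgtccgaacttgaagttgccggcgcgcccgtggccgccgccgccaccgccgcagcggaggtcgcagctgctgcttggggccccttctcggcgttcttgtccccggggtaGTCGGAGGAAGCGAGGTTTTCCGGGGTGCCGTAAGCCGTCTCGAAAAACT
Hoxd3os1: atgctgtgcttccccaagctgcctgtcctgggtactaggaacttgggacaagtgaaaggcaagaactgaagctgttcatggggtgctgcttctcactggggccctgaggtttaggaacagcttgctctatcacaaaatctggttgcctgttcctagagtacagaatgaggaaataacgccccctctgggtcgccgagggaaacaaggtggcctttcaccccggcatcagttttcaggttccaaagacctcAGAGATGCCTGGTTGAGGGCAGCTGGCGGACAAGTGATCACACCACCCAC
The Hoxa11os window lay inside Hoxa11, with 282 of its 300 bases coding there, and had a GC content of 70.3% and 41 CG dinucleotides. The Hoxd3os1 window touched no exon of a Hoxd gene and had a GC content of 54.0% and 5 CG dinucleotides. Over 32851 promoters of the same length the medians were 52.7% and 7. On both strands, the windows were searched for CTTTGAT and CTTTGAA (TCF/LEF), TTTATG and TTTATA (CDX) and the DR5 retinoic acid response element, which occurred in 3.73%, 5.14%, 11.9%, 13.6% and 0.0974% of all promoters. The only match in the 4 member windows was TTTATA in that of Hoxa11os, at position -243 relative to the RefSeq start. It is a description of the letters only.

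Some values of the table are all or none. Hotairm1, Hoxaas2 and Hoxb3os were among 468 genes that were listed at 0 in at least 5 libraries and above 2 FPKM in all the others. None of the 39 Hox genes met this rule, but genes used by every cell did. Ube2e1 was listed at 0 in 15 libraries and at 49.3 FPKM or more in the rest, and Ndufb5 was listed at 0 in 11 libraries and otherwise at 52.1 FPKM or more. Hoxaas3 showed the same gap, listed at 0 in 4 libraries and at 11.7 FPKM or more in the other 57. Hox genes were not free of such gaps. Hoxb3 was listed at 0 in 2 libraries, both at 72 h, and at 11.6 FPKM or more in the other 59. In the wild type at 96 h, Hoxa7 was above 0 in 3 of 6 libraries and reached 25.5 FPKM. A value of 0 thus need not mean that the RNA was absent, although the estimate of no member was marked as failed. It is written as listed at 0, without a fold, and calls against a group listed at 0 are named as such. The libraries formed 2 sets by the mitochondrial transcript mt-Co3, which was between 995 and 1718 FPKM in 28 libraries and between 0.338 and 2.76 FPKM in 33. The low set held the time course and the wild type at 144 h, together with replicate 4 of the wild type at 96 h and 120 h. Among mutants it held the earlier stage of Del(sub-TAD1), the last stage of Del(CBS1-5) and both stages of Ins(2xCBS-d4d8) and Del(CBS4). Each mutant result of a member was also computed against wild-type libraries of the same set, time course included. In the time course, the libraries of replicate 2 at 96 h and replicate 1 at 120 h stood apart from their partners, and results that rest on them are given with and without them. FPKM carry no depth, but their steps gave whole fragments for 98.4% to 99.6% of low values in the 33 libraries (within 0.05 of a whole number) and a depth of 15.1 to 33.0 M fragments. In the other 28 libraries only 74.3% to 80.1% came out whole, and their depth is unknown.

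Cell type markers in the time course gave the context. All 4 markers of neuro-mesodermal progenitors (T, Cdx2, Nkx1-2, Wnt3a) were at 1 FPKM or more in both libraries at the 4 stages examined, from 72 h to 168 h. All 4 presomitic markers were so until 120 h and 1 at 168 h, whereas of the spinal cord markers (Sox1, Pax6, Olig2, Neurog2) 0 passed at 72 h and 96 h, 1 at 120 h and 4 at 168 h. This cut does not show changes above it. T, Nkx1-2 and Wnt3a were lower at 168 h than at 72 h, T at 9.20 and 10.4 FPKM after 759 and 1126 FPKM. Cdx2 was at 21.3 and 23.4 FPKM at 168 h and at 16.8 and 36.8 FPKM at 72 h. In Del(d1-d4), Hoxd1, Hoxd3 and Hoxd4 were listed at 0 in all 4 libraries, as the label states. In bulk RNA, fewer cells that express a gene and less RNA per cell cannot be told apart. The study's methods call replicates biological, but the labels do not say whether they came from separate cultures, so that p-values measure the spread between these samples.

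Of the 9 transcripts, 4 reached 1 FPKM in both libraries of a time-course stage. They did so one after another, Hoxaas3 at 84 h, Hoxb5os at 96 h, Hoxa11os at 132 h and Hoxd3os1 at 168 h. Hoxa11os rose together with its posterior partner Hoxa11, and Hoxaas3 was listed at 0 again at 168 h. The other 5 never reached this level in both libraries of a stage. Tests were run with limma on log2(FPKM + 0.1), two-sided, with Benjamini-Hochberg adjustment over the 17098 genes with a mean of at least 1 FPKM in at least 1 group, and fold changes are on that scale, which understates changes of low genes. The filter left 7 of the 9 members, without Hottip and Hotair. Over the 7 intervals between successive stages, 7 of 49 tests of members rose and 1 fell, 3 of the rises starting from a group listed at 0. The background for this, the share of all tested genes called in either direction, was 16.3% at 84 h against 72 h, 20.7% at 96 h against 84 h, 9.45% at 108 h against 96 h, 7.06% at 120 h against 108 h, 2.46% at 132 h against 120 h, 5.42% at 144 h against 132 h and 9.87% at 168 h against 144 h. Of the calls of all tested genes over these intervals, 202 of 6496 rises started from a group listed at 0 and 177 of 5687 falls ended in one. Among the 34 Hox genes tested, 22 rose and 1 fell at 84 h against 72 h, with a median log2 difference of 2.64, and 15 rose and 1 fell at 108 h against 96 h.

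**Figure D1:**
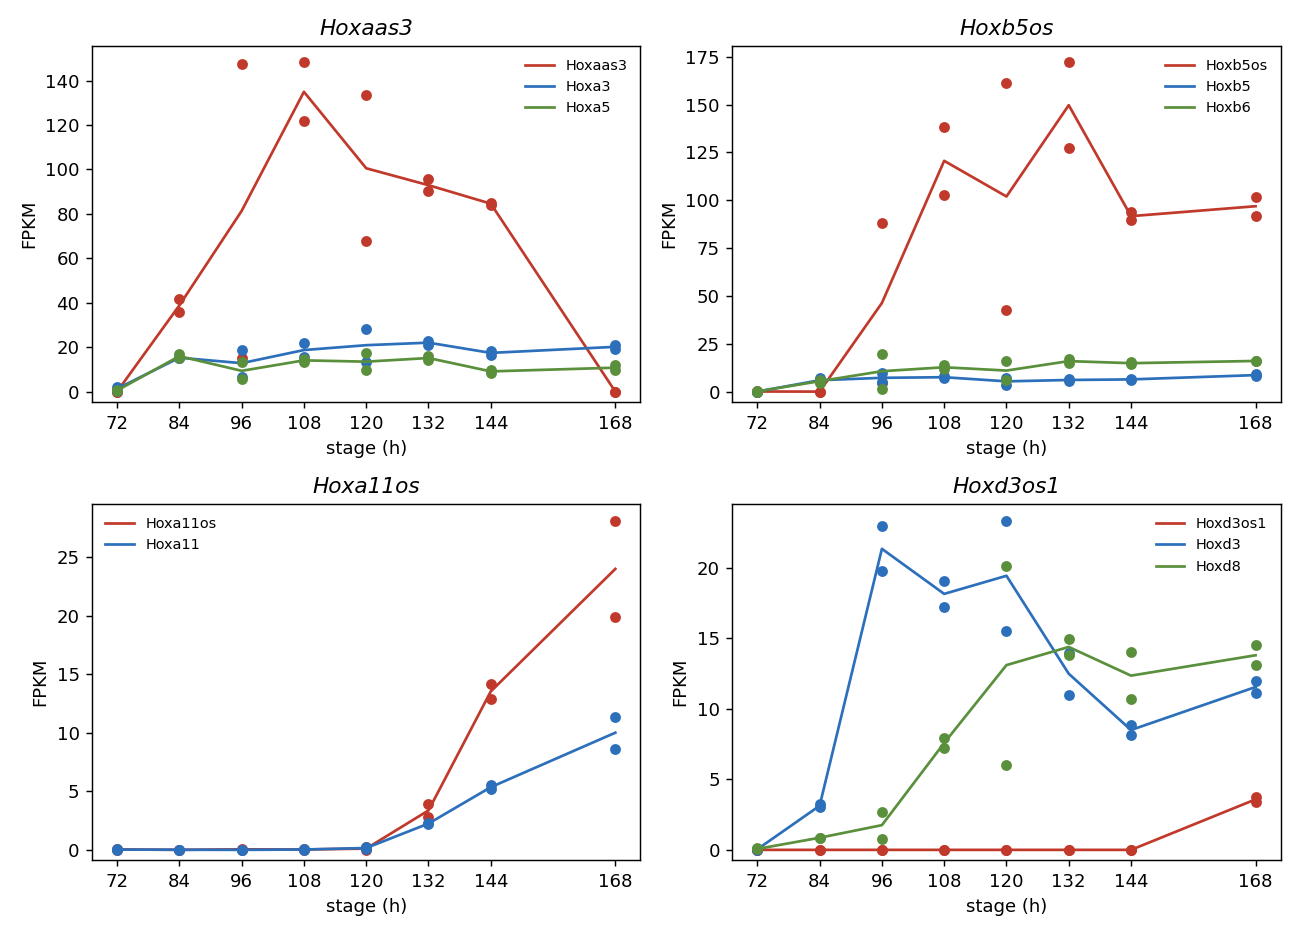
FPKM of Hoxaas3, Hoxb5os, Hoxa11os and Hoxd3os1 with neighbouring Hox genes against hours after aggregation in the wild-type time course; each point is a library and lines join the means of 2 libraries. Hoxaas3 was listed at 0 at 72 h and 168 h, Hoxa11os and Hoxa11 rose from 132 h on, and Hoxd3os1 was above 0 at 168 h only.

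Hoxaas3, the long antisense transcript across the segment from Hoxa3 to Hoxa7, was listed at 0 in both libraries at 72 h. It was at 41.6 and 36.0 FPKM at 84 h and 148 and 15.1 FPKM at 96 h, and then at 122 and 148 FPKM at 108 h and 67.7 and 133 FPKM at 120 h. It stood at 95.6 and 90.2 FPKM at 132 h and 85.0 and 84.2 FPKM at 144 h, and was listed at 0 in both libraries at 168 h. The transcript was thus high for the whole period from 84 h to 144 h, with the widest spread within a stage at 96 h. The differences at 84 h and 168 h passed the limma test with adjusted p-values of 1.12e-15 and 5.97e-17, both with a group listed at 0, and whether these zeros lie in the RNA or in the estimation was not tested. Of the Hox genes within its span, Hoxa4 was listed at 0 at 168 h, as it was in 58 libraries of the series. The other overlapped genes were not listed at 0 at 168 h. Hoxa3, an anterior Hox gene, was at 21.2 and 19.2 FPKM at 168 h after 16.6 and 18.2 FPKM at 144 h, and Hoxa7 was at 37.5 and 36.3 FPKM after 42.7 and 43.2 FPKM.

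The step of Hoxaas3 from 96 h to 108 h was 1.51 ± 0.49 (log2, SE) with an adjusted p of 0.0476 in limma, but the stages overlapped. Without the libraries that stand apart, replicate 2 at 96 h and replicate 1 at 120 h, the step was -0.14 and did not pass. Outside the time course the wild type held 77.8, 97.6, 167 and 126 FPKM of Hoxaas3 at 96 h and 106, 102.5, 93.5 and 148 FPKM at 120 h. At 144 h these wild-type libraries were at 16.1 and 14.7 FPKM, far below the time-course libraries of the same label, although both belong to the low mt-Co3 set. This pair was not among the comparisons tested. Replicate 4 at 120 h was unusual in that Hoxa3 was listed at 0 beside 148 FPKM of Hoxaas3, while the other 3 libraries held 14.98 to 18.6 FPKM of Hoxa3.

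Hoxb5os, which runs opposite to the trunk genes Hoxb5 and Hoxb6, was at 0 and 0.133 FPKM at 72 h and listed at 0 in both libraries at 84 h. The values were 88.1 and 4.57 FPKM at 96 h, 103 and 138 FPKM at 108 h, 42.5 and 161 FPKM at 120 h and 172 and 127 FPKM at 132 h. It ended at 89.6 and 93.8 FPKM at 144 h and 92.0 and 101.8 FPKM at 168 h. Hoxb5os was thus above 1 FPKM in both libraries a stage later than Hoxaas3 and was not listed at 0 afterwards, and whether the zeros at 84 h lie in the RNA or in the estimation was not tested. The Hox genes that it overlaps were measured above 0 at that stage. Hoxb5 was at 7.05 and 4.86 FPKM and Hoxb6 at 6.20 and 4.70 FPKM at 84 h, when Hoxb5os was listed at 0, and both had risen from 72 h in limma (log2 5.69 ± 0.21 and 5.00 ± 0.54, adjusted p 7.33e-21 and 5.91e-09).

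The rise of Hoxb5os at 96 h had an adjusted p of 1.12e-11 in limma from a group listed at 0, and the rise from 96 h to 108 h was 2.56 ± 0.61 with an adjusted p of 0.00546. Without the 2 libraries that stand apart the latter was 0.44 with an adjusted p of 0.579, and without replicate 2 of the time course it was 0.22 with an adjusted p of 0.997. From 108 h on no step passed the test. Outside the time course, Hoxb5os was at 39.4, 47.6, 50.4 and 37.9 FPKM at 96 h and 101.7, 102.03, 85.2 and 86.3 FPKM at 120 h. All 4 later values lay above the earlier ones, with a log2 difference of 1.10 ± 0.43, but the adjusted p was 0.0561. Over the same stages Hoxb5 fell by 1.00 ± 0.15 on the log2 scale with an adjusted p of 2.31e-06. Hoxb5os was present above 0 in 58 libraries, at a median of 11.4 times the FPKM of Hoxb5, with a range of 0.949 to 28.0.

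Hoxa11os, the partner of the posterior gene Hoxa11, stayed at or below 0.214 FPKM in all 10 time-course libraries up to 120 h. It then rose to 2.79 and 3.96 FPKM at 132 h, 12.9 and 14.2 FPKM at 144 h and 28.1 and 19.9 FPKM at 168 h. Hoxa11 was at 2.31 and 2.19, 5.52 and 5.195 and 11.4 and 8.65 FPKM at the same stages, and so below its antisense transcript in each of these libraries. In limma the step at 132 h was 4.27 ± 0.53 for Hoxa11os (adjusted p 4.96e-06) and 3.29 ± 0.53 for Hoxa11 (adjusted p 3.03e-04). Hoxa11os rose further by 1.99 ± 0.53 at 144 h with an adjusted p of 0.0196, which became 0.263 and 0.168 without replicate 1 or 2 of the time course, while the last step of 0.80 ± 0.53 did not pass (adjusted p 0.436). Wild-type libraries outside the time course were lower at 144 h, at 1.158 and 1.002 FPKM of Hoxa11os and 0.347 and 0.469 FPKM of Hoxa11.

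**Figure D2:**
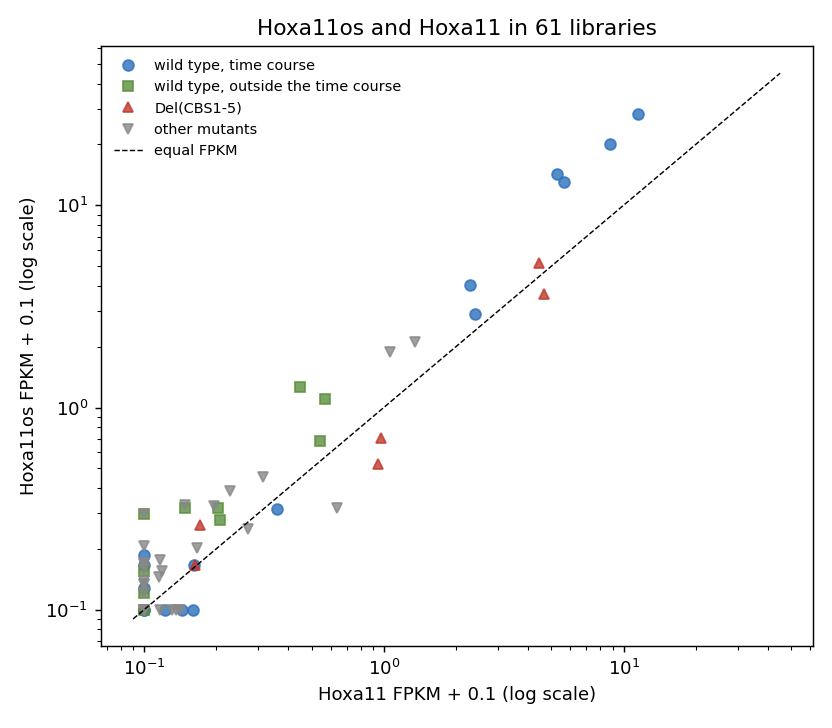
Hoxa11os against Hoxa11 in the 61 libraries, both as FPKM + 0.1 on log axes, with a dashed line of equal levels. The time-course libraries from 132 h on lie at the upper right above the line, and the 2 Del(CBS1-5) libraries at 144 h lie near it at 3.55 and 5.10 FPKM of Hoxa11os.

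Over the 32 libraries in which both were above 0, Hoxa11os was at a median of 1.83 times the FPKM of Hoxa11, with a range of 0.403 to 4.81. The exons of the pair share 800 bases, so that the ratio may include reads of either strand. Over the 16 time-course libraries, the Hox gene with the pattern most like Hoxa11os was Hoxc11, a posterior gene of another cluster, with a Pearson r of 0.994 on log2(FPKM + 0.1). Among all tested genes the next were Chl1 (0.983), Gm29508 (0.971) and Myog (0.968). For Hoxb5os the most similar Hox gene was Hoxa7 (0.948) and the closest genes were Zbtb16 (0.981), Sox6 (0.974) and Nr2f2 (0.972). For Hoxaas3 they were Hoxb4 (0.764), Arid3a (0.928), Rin2 (0.915) and Gm45889 (0.915). These are descriptions over libraries that share the stage.

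Hoxd3os1, opposite to Hoxd8 and to the upstream exons of Hoxd3 and Hoxd4, was listed at 0 in all 14 time-course libraries before 168 h. It was at 3.42 and 3.74 FPKM at 168 h, and the step passed in limma with an adjusted p of 2.24e-27 from a group listed at 0. The shared spread behind this p-value comes mostly from groups that hold only zeros of Hoxd3os1. It does not measure the spread between libraries that show the transcript. Hoxd3 and Hoxd8 were active long before. Hoxd3 was at 22.9 and 19.7 FPKM by 96 h, and Hoxd8 was at 13.8 and 14.9 FPKM by 132 h. All wild-type libraries outside the time course listed Hoxd3os1 at 0.

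Hottip, at the posterior end of HoxA, and Hotair, between the posterior genes Hoxc11 and Hoxc12, stayed at trace levels. Hotair was above 0 in 18 libraries, with a highest value of 0.339 FPKM, and in the time course it was above 0 only from 132 h on, at 0 and 0.147 FPKM at 132 h, 0.155 and 0.144 FPKM at 144 h and 0.339 and 0.207 FPKM at 168 h. In the 33 libraries with known depth, 3 fragments corresponded to 0.0496 to 0.108 FPKM of Hotair, and 7 of the 11 values above 0 reached this. The highest represented 13 fragments. Its neighbour Hoxc11 was at 4.89 and 3.66 FPKM at 168 h. Hottip was above 0 in 6 libraries and at most at 0.146 FPKM, and Hoxa13 beside it was at 0.452 and 0.370 FPKM at 168 h. Neither transcript passed the filter, and no test was made of them.

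**Figure D3:**
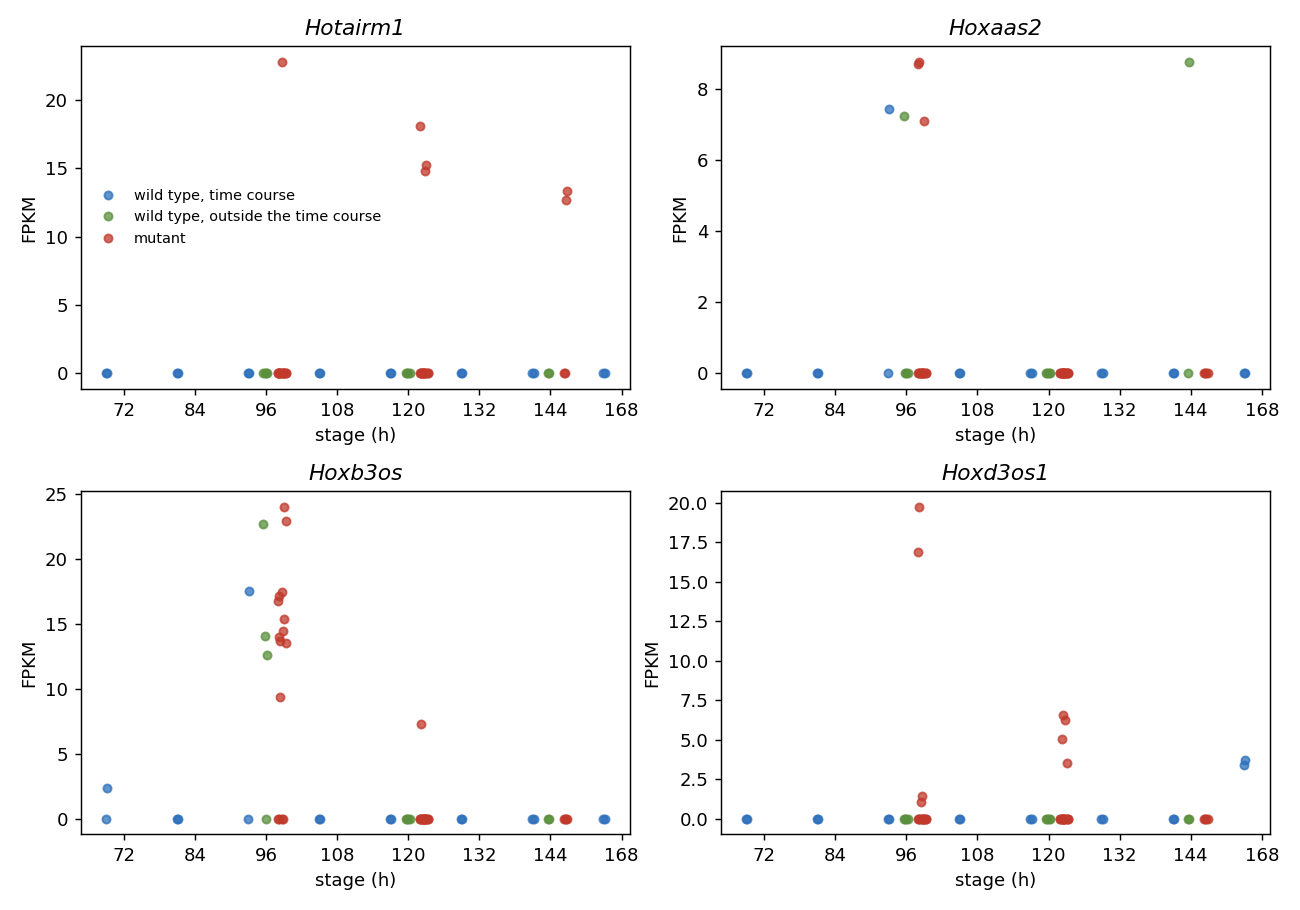
FPKM of Hotairm1, Hoxaas2, Hoxb3os and Hoxd3os1 by stage (equally spaced, the 3 kinds of libraries side by side), with a point per library for the wild-type time course, the wild type outside it and the mutants. Most libraries lie at 0, and the others form separate clouds, at 12.7 to 22.8 FPKM for Hotairm1 and 7.11 to 8.79 FPKM for Hoxaas2.

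The remaining transcripts, Hotairm1, Hoxaas2 and Hoxb3os, were listed at 0 in most libraries and clearly above 0 in the others, which included different genotypes. Hotairm1 was above 0 in 6 libraries, none of them wild type. The values were 18.1 FPKM in replicate 1 of Del(CBS2) at 120 h, 12.7 and 13.4 FPKM in Del(CBS4) at 144 h, 22.8 FPKM in replicate 2 of Del(d1-d4) at 96 h and 14.8 and 15.2 FPKM in Del(d1-d4) at 120 h. Whether the switch between 0 and these values lies in the RNA or in the estimation was not tested.

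Hoxaas2 was above 0 in 6 libraries, 5 of them at 96 h. It was at 7.46 FPKM in replicate 2 of the time course at 96 h, 7.26 FPKM in replicate 1 of the wild type at 96 h, 8.79 FPKM in replicate 2 of the wild type at 144 h, 8.73 and 8.77 FPKM in Del(CBS2) at 96 h and 7.11 FPKM in replicate 2 of Del(sub-TAD1) at 96 h. Hoxa3, over which it lies, had a median of 11.1 FPKM in these 6 libraries and of 17.04 FPKM in the others. No comparison of Hoxaas2 passed the test.

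Hoxb3os was above 0 in 17 libraries, and 15 of these were among the 21 libraries at 96 h. At 96 h the wild type was at 22.7, 14.1, 0 and 12.6 FPKM outside the time course and at 0 and 17.6 FPKM within it. Among the mutants at 96 h it was listed at 0 in both libraries of Del(CBS1-5) and in 1 library each of Del(CBS1-2) and Ins(2xCBS-d4d8), and it was at 9.35 to 24.0 FPKM in the other 11. The only values above 0 at other stages were 2.37 FPKM in the time course at 72 h and 7.30 FPKM in Del(CBS2) at 120 h. The fall from 96 h to 120 h in the wild type outside the time course, to a group listed at 0, had an adjusted p of 0.00437 in limma, in a comparison in which 27.1% of all genes were called and 1 of 7 members. Without wild-type replicate 1 the adjusted p was 0.0526. The sense genes were not listed at 0. Hoxb3 was at 32.2, 38.4, 38.2 and 27.2 FPKM at 96 h and 33.4, 32.1, 27.2 and 22.1 FPKM at 120 h, and Hoxb2 was at 28.0 to 42.2 and 24.2 to 31.3 FPKM.

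In the mutants, the question was how the transcripts responded when the CTCF sites, the anterior Hoxd segment or the regulatory domain of HoxD was altered. Each was compared with the wild type of its stage from outside the time course. Over these 17 comparisons, 7 of 119 tests of members were higher and 3 were lower, and 6 of the higher and 2 of the lower calls involved a group listed at 0. Among all tested genes, 656 of 17167 higher calls started from such a group and 2264 of 18046 lower calls ended in one. The transcript of the altered cluster, Hoxd3os1, gave 4 of the 7 higher calls. The background differed widely. The share of all genes called at 96 h and 120 h was 1.23% and 2.10% in Del(CBS1), 0.298% and 0.193% in Del(CBS2), 4.49% and 2.35% in Del(CBS1-2), 1.19% and 1.85% in Del(d1-d4), 40.0% and 6.15% in Del(sub-TAD1) and 27.9% and 26.9% in Ins(2xCBS-d4d8). In Del(CBS1-5) it was 14.8%, 13.3% and 23.7% at the 3 stages in order, and in Del(CBS4) it was 37.5% at 120 h and 2.05% at 144 h. Replicates 1 to 3 of the wild type at 96 h and 120 h were in the high mt-Co3 set, whereas Ins(2xCBS-d4d8), Del(CBS4) and Del(sub-TAD1) at 96 h were in the low set, and the part of this in the high shares was not tested.

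Hoxd3os1 was listed at 0 in all 10 wild-type libraries outside the time course and in every mutant library but those of 2 lines. In Ins(2xCBS-d4d8) it was at 16.9 and 19.7 FPKM at 96 h and at 5.07 and 6.57 FPKM at 120 h. In Del(d1-d4) it was at 1.04 and 1.43 FPKM at 96 h and at 6.24 and 3.54 FPKM at 120 h. All 8 libraries of these lines thus showed the transcript, and the insertion line had more of it at 96 h than at 120 h, whereas the deletion line had less. The adjusted p-values in limma were 5.50e-34 and 7.75e-31 for Ins(2xCBS-d4d8) and 2.60e-24 and 1.28e-29 for Del(d1-d4) at 96 h and 120 h. All were against a group listed at 0. Most groups hold only zeros of Hoxd3os1, so that these p-values do not measure the spread between libraries that show it. The calls were kept with wild-type controls of the same mt-Co3 set and under each other alternative tried. The annotated start of Hoxd3os1 lies between Hoxd8 and the body of Hoxd4, the interval that received the cassette of Ins(2xCBS-d4d8), and Hoxd4 is the gene at which the deletion of Del(d1-d4) ends. Allele sequences that the study gives were read here from page images. Those of Ins(2xCBS-d4d8) and Del(CBS1) both involve bases of the Hoxd3os1 start, by added copies in the former and by loss in the latter. In Ins(2xCBS-d4d8), the transcribed bases of the Hoxd3os1 window printed above recur in both alleles, beyond the stretch that begins inside the window, so that this line carries at least 1 added copy of them. RNA from such a copy cannot be told apart from RNA of the original place, since reads were mapped to the unaltered genome. The alleles of Del(CBS1) lack the transcribed bases of the window and nearly all of the bases before them. The values listed at 0 in Del(CBS1), and in Del(CBS1-2) made from it, are thus from lines without the annotated start. The breakpoints of Del(d1-d4) relative to the exons were not analysed here.

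**Figure D4:**
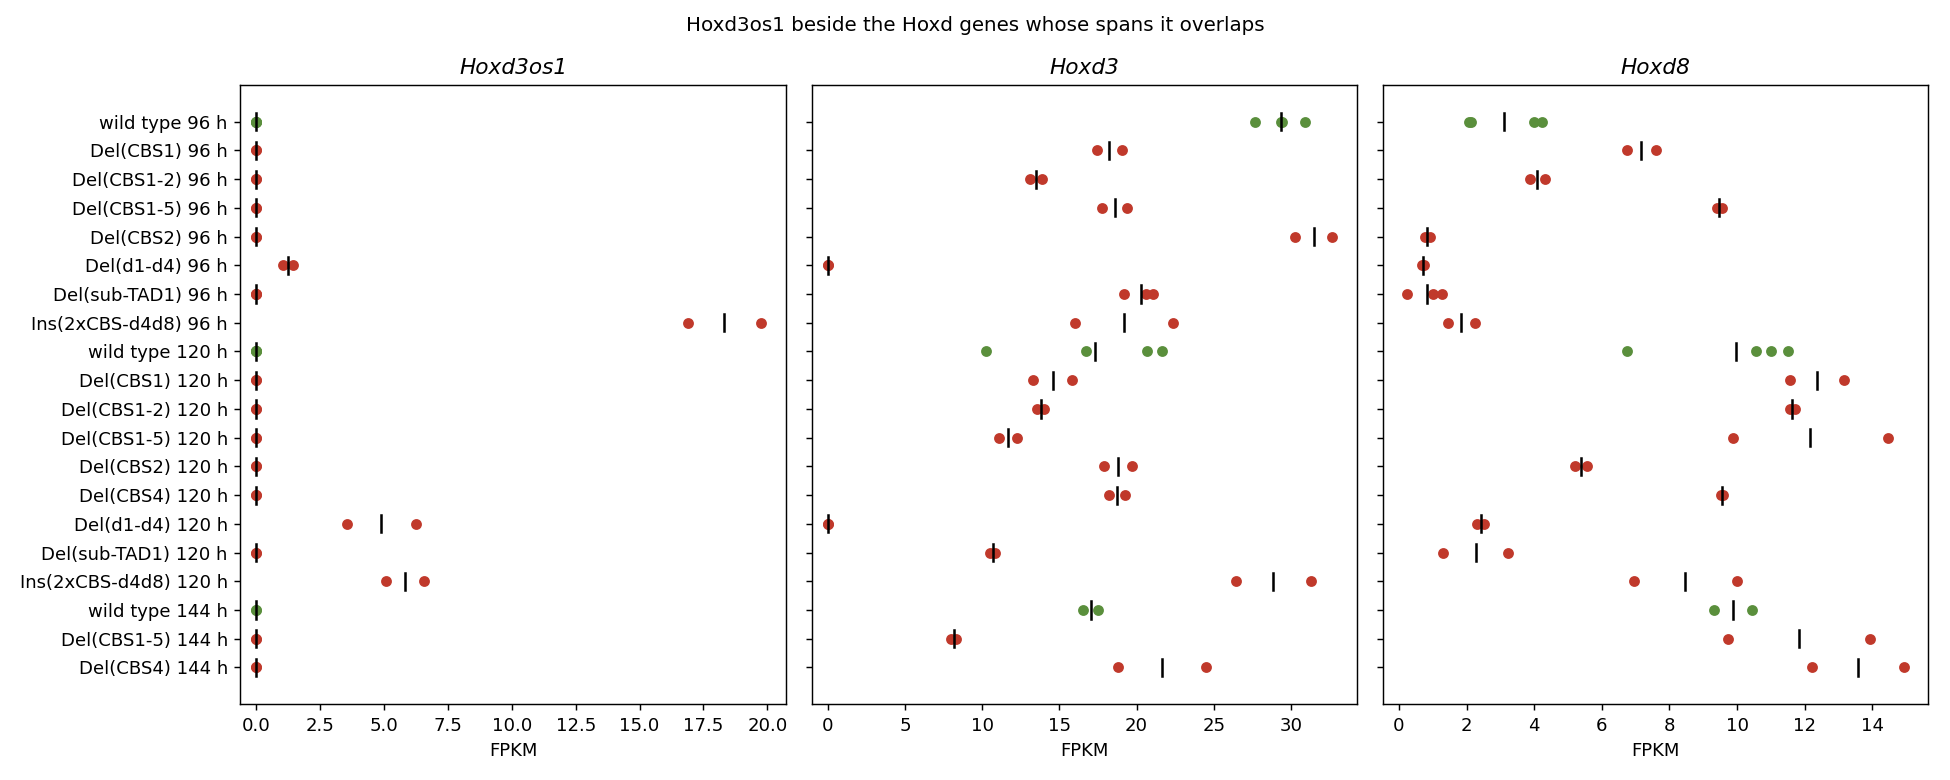
FPKM of Hoxd3os1, Hoxd3 and Hoxd8 in each library by genotype and stage outside the time course, with a bar at each group mean. Hoxd3os1 is above 0 in Ins(2xCBS-d4d8) and Del(d1-d4) only, while Hoxd3 is listed at 0 in Del(d1-d4).

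The sense genes around Hoxd3os1 moved differently in the 2 lines. In Del(d1-d4), Hoxd3 and Hoxd4 were listed at 0, and Hoxd8 was lower at 96 h, at 0.688 and 0.744 FPKM against 2.14, 2.08, 4.23 and 4.01 FPKM. It was also lower at 120 h, at 2.32 and 2.53 FPKM against 6.74 to 11.5 FPKM, with log2 differences of -1.90 and -1.97 and adjusted p-values of 0.0163 and 0.00939 in limma. In Ins(2xCBS-d4d8), Hoxd3 was lower at 96 h, at 16.02 and 22.3 FPKM against 27.7 to 30.9 FPKM (log2 -0.63, adjusted p 0.0156). It was higher at 120 h, at 31.3 and 26.4 FPKM against 10.3 to 21.7 FPKM (log2 0.78, adjusted p 0.00358), with Hoxd4 higher as well (log2 0.54, adjusted p 0.0431). Hoxd8 was at 2.24 and 1.45 FPKM at 96 h and 6.94 and 9.995 FPKM at 120 h in the insertion line and did not pass the test. The insertion line was in the low mt-Co3 set and most of its controls in the high set. Its values here are also unscaled. The log2 factors from the other Hox clusters were 0.807 at 96 h and 0.324 at 120 h for its Hoxd genes. Subtracting them would lower each difference, and scaled tests of these Hox genes are not given here. With such scaling, the study reports several Hoxd genes lower at the earlier stage and central genes still affected at the later one.

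Hotairm1 gave 2 of the higher calls, in Del(CBS4) at 144 h with an adjusted p of 0.0017 and in Del(d1-d4) at 120 h with an adjusted p of 2.58e-04 in limma, both against wild-type groups listed at 0 and with the library values given above. Hoxa11os gave the last. In Del(CBS1-5) at 144 h it was at 3.55 and 5.10 FPKM against 1.158 and 1.002 FPKM in the wild type, a log2 difference of 1.89 ± 0.53 with an adjusted p of 0.00742. Without mutant replicate 1 or 2 the adjusted p was 0.123 or 0.281. Its partner Hoxa11 was at 4.56 and 4.35 FPKM against 0.347 and 0.469 FPKM, a log2 difference of 3.17 with an adjusted p of 1.75e-05. The sense gene therefore stood at the level of the antisense transcript in this line, while it was below it in the wild type. The time-course wild type at 144 h held more of both than the mutant, 12.9 and 14.2 FPKM of Hoxa11os and 5.52 and 5.195 FPKM of Hoxa11. With all wild-type libraries of the same mt-Co3 set as controls the log2 difference of Hoxa11os was 0.12 with an adjusted p of 0.99. At 120 h Hoxa11os was at 0.424 and 0.606 FPKM in Del(CBS1-5) against 0.197, 0.021, 0.583 and 0.217 FPKM, which did not pass (adjusted p 0.143), and Hoxa11 was at 0.843 and 0.875 FPKM with a log2 difference of 2.51 and an adjusted p of 3.8e-04.

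Of the lower calls, that of Hoxb5os in Del(sub-TAD1) at 96 h was the one between groups that were both above 0. It was at 12.5, 9.64 and 10.1 FPKM in the mutant and at 39.4, 47.6, 50.4 and 37.9 FPKM in the wild type, and the log2 difference was -2.02 ± 0.47 with an adjusted p of 0.00105 in limma. Every mutant library lay below every wild-type library, but without mutant replicate 1 or 2 the adjusted p was 0.0614 or 0.0929. At this stage, at which 40.0% of all genes were called, 15 of 34 Hox genes were lower and 1 was higher in the mutant, Hoxb6 among them (log2 -1.29, adjusted p 0.0117), whereas Hoxb5 was at 11.5, 9.39 and 9.47 FPKM against 8.74 to 12.3 FPKM. With controls of the same mt-Co3 set the Hoxb5os difference was -1.22 with an adjusted p of 0.109, and scaled by the Hox genes of the other clusters it was -1.03 with an adjusted p of 0.0787. At 120 h the mutant was at 44.7 and 49.0 FPKM against 85.2 to 102.03 FPKM, which did not pass.

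The other lower calls were to mutant groups listed at 0, and that of Hoxa11os was at the border of detection. Hoxa11os was listed at 0 in both Del(CBS4) libraries at 120 h against a wild-type mean of 0.254 FPKM (adjusted p 0.00719 in limma, and 0.192 or 0.243 without mutant replicate 1 or 2). The adjusted p was 0.148 with controls of the same mt-Co3 set and 0.0530 with a pseudocount of 1 FPKM. Hoxa11os was also listed at 0 in both libraries of Del(CBS2) and of Del(d1-d4) at 120 h, which did not pass. As the wild-type libraries were the same, the fitted difference and the unadjusted p are the same in these lines and in Del(CBS4). Only the adjustment differed, with 37.5% of all genes called in Del(CBS4) at 120 h against 0.193% in Del(CBS2) and 1.85% in Del(d1-d4). The call is thus not particular to Del(CBS4). Hoxb3os was listed at 0 in both Del(CBS1-5) libraries at 96 h (adjusted p 0.0364), but a wild-type library was listed at 0 as well, so that the groups overlapped. Leaving out 1 library of either group raised the adjusted p of Hoxb3os to as much as 0.398, and with controls of the same mt-Co3 set it was 0.0785.

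**Figure D5:**
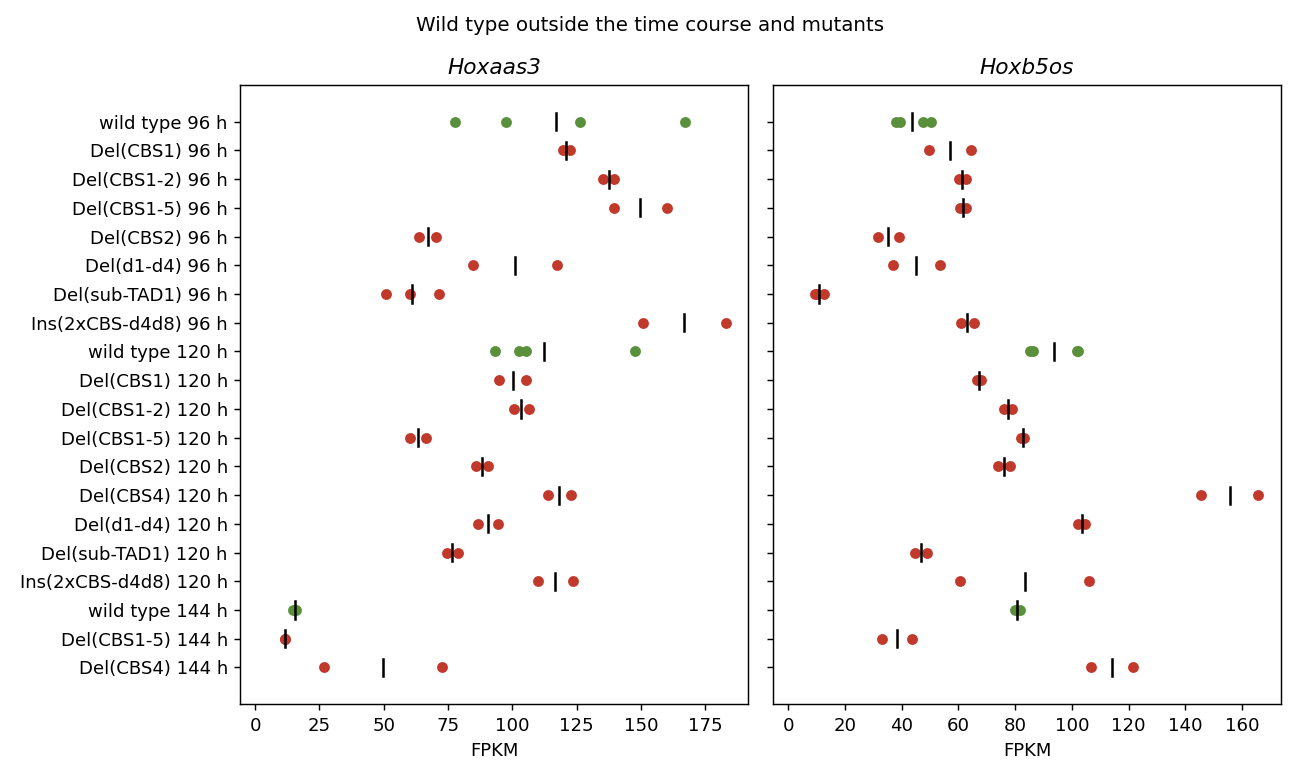
FPKM of Hoxaas3 and Hoxb5os in each library by genotype and stage outside the time course, with a bar at each group mean. Hoxb5os in Del(sub-TAD1) at 96 h, at 9.64 to 12.5 FPKM, lies below the wild type at 37.9 to 50.4 FPKM, and Hoxaas3 is at 11.7 to 16.1 FPKM in Del(CBS1-5) and the wild type at 144 h.

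Hoxaas3 passed in none of the 17 mutant comparisons against the wild type outside the time course. The log2 differences ran from -0.90 ± 0.38 in Del(sub-TAD1) at 96 h, where it was at 60.2, 50.7 and 71.6 FPKM against 77.8 to 167 FPKM (adjusted p 0.0552 in limma), to 1.51 ± 0.49 in Del(CBS4) at 144 h, where it was at 72.7 and 26.6 FPKM against 16.1 and 14.7 FPKM (adjusted p 0.110). For both, the groups did not overlap. In Del(CBS1-5) the transcript was at 160 and 139 FPKM at 96 h, 66.4 and 60.4 FPKM at 120 h and 11.7 and 11.7 FPKM at 144 h, and the wild type outside the time course was likewise lowest at 144 h. With controls of the same mt-Co3 set, which include the time course, the difference of Hoxaas3 at 144 h was -1.62 with an adjusted p of 0.0259. Hoxb5os differences in the other 16 comparisons lay between -1.09 ± 0.61 in Del(CBS1-5) at 144 h and 0.73 ± 0.53 in Del(CBS4) at 120 h, and none passed.

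Besides the 9 members, 35 further genes that are no Hox genes lay between the outermost Hox genes of the clusters, of which 16 were listed at 0 in every library and 14 were tested. At 84 h against 72 h 6 of the 14 rose and 0 fell, and in the 17 mutant comparisons at most 2 rose and at most 4 fell in any comparison. Haglr, a transcript in HoxD near Hoxd1, rose by 2.78 ± 0.20 at 84 h and by 1.49 ± 0.20 at 96 h with adjusted p-values of 7.71e-13 and 8.03e-07 in limma. It was lower at 96 h in Del(CBS1) (log2 -0.83, adjusted p 0.011) and Del(CBS1-2) (log2 -1.04, adjusted p 6.12e-04). Hoxd3os1 was listed at 0 in these lines and in their wild-type controls alike. Gm53 in HoxB rose by 1.66 ± 0.58 at 84 h and by 2.92 ± 0.58 at 108 h, with adjusted p-values of 0.047 and 8.81e-04.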

How the data were processed

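RNA-seq of 61 libraries was analysed, and titles of the samples gave the groups and replicate numbers. The authors sequenced stranded poly-A libraries as 75-base paired ends, removed adapters (cutadapt 1.16), aligned to mm10 (STAR 2.7.7a), kept uniquely mapped reads and ran Cufflinks 2.2.1 with default parameters on an annotation built from Ensembl release 102. RNA of mutants was mapped to the unaltered genome. The deposited values are FPKM per gene, scaled by the authors to mapped fragments and transcript length. The series table and the tables of single libraries held the same values, and 0 columns were left unmapped. The estimate of 14 genes had failed in at least 1 library, and 0 of these were members.

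The FPKM were put on a log2 scale with 0.1 added, and a single model with 1 coefficient per group was fitted to the 61 libraries (limma 3.58.1, R 4.3.3), on 17098 genes with a mean of at least 1 FPKM in a group. P-values were two-sided and adjusted by Benjamini-Hochberg over these genes within a comparison, with a threshold of 0.05. Successive stages of the time course were compared, and mutants were compared with the wild type of their stage outside the time course. The fitted spread is shared by all groups. Tables and plots used Python 3.11.15, pandas 2.3.3 and matplotlib 3.10.9. On simulated data with known changes, the code of the fit was tested.

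The genes named are all members, the Hox genes that overlap or adjoin them, the other genes inside the clusters and, by Pearson r over 16 time-course libraries, the most similar Hox gene and 3 genes. Members, lists and tests were chosen with earlier results of these data known. The alternatives were pseudocounts of 1 and 0.01 FPKM, no filter and a filter of 5 FPKM, upper-quartile scaling, a variance trend with the robust option, a replicate block, a fit of the compared libraries only, leaving out replicates, scaling by other Hox clusters, as the authors did for Hoxd genes, and wild-type controls of the same library set. Values of 1 further Hox gene and 1 further sequence are not reported here.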

Additional observations from a re-analysis of the deposited data

Results flagged for a closer look

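In groups of 4 libraries, a single library stood apart from the others in 3 of 10 groups tested by Dixon's criterion (for values without ties, chance marks about 1 in 20 groups). In 2 of the 3 the other libraries were all listed at 0, so that the gap is 1 whatever the value and this rate does not hold. Hotair at 120 h in the wild type had a gap of 0.923 of the range, with 0.0983 FPKM in replicate 4 against 0.00758 FPKM in the next library. Hottip in the same group had a gap of 1 of the range, with 0.146 FPKM in replicate 4 and the others listed at 0. Hoxaas2 at 96 h in the wild type also had a gap of 1, with 7.26 FPKM in replicate 1 and the others listed at 0. Replicate 4 at 120 h belonged to the low mt-Co3 set and the other 3 libraries to the high set, and the part of this in the Hotair and Hottip values was not tested.

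The effect of a mutant differed between its stages in 4 of 63 tests of members (limma, contrast of contrasts, adjusted over all genes tested), and in 4.43% of the tests of all genes over the same 9 comparisons. The share of genes ran from 0.0117% in Del(CBS2) to 23.6% in Del(sub-TAD1). For Hotairm1 in Del(CBS4) the fitted contrast of 144 h with 120 h was 7.04 (adjusted p 0.00895). The groups other than the mutant at 144 h, in which 2 of 2 libraries were above 0, were listed at 0, so that the pseudocount sets this size and it is no fold. For Hoxa11os in Del(CBS4) it was 2.33 (adjusted p 0.0343), which also rests on a mutant group listed at 0 at 120 h, and the call at 120 h did not pass with a pseudocount of 1 FPKM. Between these stages 8.27% of all genes differed in this way. Hoxd3os1 in Del(d1-d4) was 1.86 higher on the log2 scale at 120 h than at 96 h (adjusted p 1.25e-09), where 0.0234% of genes differed. Hoxd3os1 in Ins(2xCBS-d4d8) changed by -1.64 from 96 h to 120 h (adjusted p 9.45e-09), where 0.392% of genes differed. For Hoxd3os1 the wild-type groups were listed at 0, while both mutant stages were above 0. The fitted spread of Hoxd3os1 is shared by all groups, most of which hold only zeros. Its p-values thus do not measure the spread between libraries that show the transcript, such as 3.54 and 6.24 FPKM in Del(d1-d4) at 120 h.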

How the results depend on the processing

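Of 19 calls of members, 11 were kept under every alternative run for them, namely those of Hotairm1 and Hoxd3os1, Hoxaas3 at 84 h and 168 h, Hoxb5os at 96 h and Hoxa11os at 132 h. Rises in the time course numbered 7, and 4 when only the 16 time-course libraries were fitted, 6 without either replicate, and 7 with the replicate block. Falls in the time course numbered 1, also with the block, and 2 to 3 without a replicate. Higher calls in mutants numbered 7, and 9 with the replicate block, 7 to 9 without a replicate and 6 with controls of the same mt-Co3 set, an alternative chosen after seeing the data. Lower calls in mutants numbered 3, also with the block, and 0 to 5 without a replicate and 1 with controls of the same mt-Co3 set, under which none of the 3 was kept and Hoxaas3 in Del(CBS1-5) at 144 h was called instead. In the wild type, 1 member was lower at 120 h than at 96 h, also with the block, 2 members were called with a pseudocount of 1 FPKM, and 0 to 1 without a replicate. The block further called Hoxa11os in Del(CBS1-5) at 120 h (log2 1.48, adjusted p 0.0117, limma) and in Del(sub-TAD1) at 96 h (log2 0.94, adjusted p 0.0321). The direction changed in 4 cases. Hoxaas3 at 96 h against 84 h was -1.25 without replicate 1 and 1.82 without replicate 2 of the time course. At 108 h against 96 h it was -0.28 without replicate 2, 3.29 without replicate 1 and -0.14 without the 2 libraries that stand apart, which was also chosen after seeing the data. Hoxa11os in Del(CBS4) at 144 h was -2.77 against controls of the same set as first defined, by summed mitochondrial expression, which gave sets of 16 and 45 libraries. The cause was not tested. The 4 onsets were the same at 0.5 and 2 FPKM and without either replicate, and without replicate 1 there were 6, with Hoxaas2 at 96 h and Hoxb3os at 72 h. Most same-numbered libraries showed no pairing. Deviations of same-numbered time-course libraries correlated at -0.089 to 0.132 over 56 pairs, 2 of them above 0.1. Those of the other libraries correlated at -0.214 to 0.889 over 384 pairs, 6 of them above 0.1. Replicate 4 of the wild type at 96 h and at 120 h shared the low mt-Co3 set, so that some numbers may mark a shared batch. Libraries correlated best with their own number in 10 of 16 time-course libraries and 5 of 45 others. Values of 0, groups of 2 libraries and unknown depth in 28 libraries limit what can be said of low transcripts.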
